A study of Mus musculus with 10 samples.

Results

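The basement membrane genes described here are 10 of the 11011 genes in the count table. The members include the laminin chains Lama1, Lama5, Lamb1 and Lamc1 and the collagen IV chains Col4a1 and Col4a2. The others are the nidogens Nid1 and Nid2, the perlecan gene Hspg2, and Sparc. Members and the gene lists below were chosen by name, with earlier results of these data known. Their called counts beside the shares of all genes are thus descriptions and no test. Ribosome footprints, the messenger RNA fragments that ribosomes shield from nuclease, were counted per gene in 10 libraries, 2 per group, all from E14, a line of embryonic stem cells of the mouse. The groups were labelled as Dgcr8 knockout, Drosha knockout, Dicer knockout, knockout of both Ago1 and Ago2 (the Ago knockout), and wild type (WT). Dgcr8 and Drosha form the nuclear Microprocessor that cuts primary microRNA transcripts, Dicer cuts the hairpins it releases, and Ago1 and Ago2 carry the mature microRNAs. All groups share the 129/Ola background, gelatine-coated plates, serum and LIF, and a short cycloheximide treatment before lysis. The labels give no agent or promoter for the knockouts and do not say how many clones stand behind a group, or whether replicates were separate cultures, so the p-values speak for the spread among these libraries, which may be technical.

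A basement membrane is a thin sheet of secreted matrix on which epithelia rest. Laminins are trimers of 1 alpha, 1 beta and 1 gamma chain that polymerise on the cell surface, collagen IV forms a second network from triple helices, and nidogen and perlecan link the networks. In the early mouse embryo laminin-111 (Lama1, Lamb1, Lamc1) and collagen IV are known products of primitive endoderm and its parietal and visceral derivatives, and embryonic stem cells make laminin as well.

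Total counts per library ran between 1754710 and 80850950, and the lowest count of any member in any library was 55. Of the targeted genes, Drosha footprints averaged 29.4 ± 7.24 CPM (counts scaled by library size) in Drosha knockout and 177 ± 0.283 CPM in WT, Dicer1 18.9 ± 4.42 CPM in Dicer knockout and 123 ± 1.73 CPM in WT, and Ago2 10.8 ± 5.88 CPM in Ago knockout and 81.9 ± 0.0133 CPM in WT (SD, n = 2 each). Ago1 averaged 18.9 ± 11.5 CPM in Ago knockout and 14.5 ± 0.246 CPM in WT, so its counts do not separate Ago knockout from WT. Elsewhere Ago1 averaged 31.6 ± 9.43 CPM under the label Dgcr8 knockout, 66.8 ± 8.54 CPM in Drosha and 72.5 ± 11.3 CPM in Dicer knockout. Dgcr8 footprints were higher, not lower, in the libraries labelled Dgcr8 knockout, at 145 ± 0.568 CPM against 32.9 ± 0.235 CPM in WT. They were above WT in the other knockouts too, at 183 ± 19.9 CPM in Drosha, 70.3 ± 8.2 CPM in Dicer and 69.0 ± 7.84 CPM in Ago knockout. The Dgcr8 counts thus neither bear out nor contradict the label. The counts are given per gene, and the deleted parts are not given in the sources used here. The libraries labelled Dgcr8 knockout also stood apart from each other for several members. Member tests over the mean of the knockouts are therefore given with and without them. Counts of the other gene lists over that mean, and the likeness between genes, include them. The pluripotency markers fitted the labelled cell type: all 10 listed genes, among them Pou5f1, Nanog and Sox2, were detected, with summed levels between 4850 and 6370 CPM in the knockout libraries and of 5630 and 6100 CPM in WT.

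Col4a1 and Col4a2 lie head to head on chromosome 8 (GRCm38), Col4a1 at chr8:11198423-11312826 on the minus strand and Col4a2 at chr8:11312805-11449287 on the plus strand. Their first exons overlap by 22 bases on opposite strands. The windows that RefSeq gives around their starts (GRCm38.p6, 250 bases before to 50 after) are shown because both genes are read from this 1 stretch of DNA. The 78 bases that both windows share are in capitals, on the strand of each gene.

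Col4a1 promoter window, chr8:11312777-11313076, minus strand: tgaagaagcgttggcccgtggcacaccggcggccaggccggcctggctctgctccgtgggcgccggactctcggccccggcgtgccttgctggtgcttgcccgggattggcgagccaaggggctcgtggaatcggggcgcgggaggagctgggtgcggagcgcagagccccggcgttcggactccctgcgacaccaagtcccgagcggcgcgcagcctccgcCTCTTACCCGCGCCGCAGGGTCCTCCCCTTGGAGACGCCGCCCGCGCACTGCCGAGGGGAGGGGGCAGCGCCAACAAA

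Col4a2 promoter window, chr8:11312555-11312854, plus strand: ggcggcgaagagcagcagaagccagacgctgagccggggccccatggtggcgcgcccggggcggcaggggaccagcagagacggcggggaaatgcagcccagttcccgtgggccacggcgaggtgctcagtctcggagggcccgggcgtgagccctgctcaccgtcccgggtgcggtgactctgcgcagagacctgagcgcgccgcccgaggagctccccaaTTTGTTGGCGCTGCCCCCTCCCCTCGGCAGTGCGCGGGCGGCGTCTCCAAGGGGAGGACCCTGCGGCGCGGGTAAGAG

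Promoter windows were matched for 7 of the 10 members. The GC box letters GGGCGG, searched on both strands, were in 6 of the 7, against 35.7% of all 32851 windows of the same length, with 5 matches in Hspg2, 4 in Lama5, 3 in Col4a2, 2 in Lamb1, 1 each in Col4a1 and Nid1, and 0 in Sparc. The letters CCAAT, on both strands, were found 1 time each in Col4a1, Col4a2, Lamb1 and Nid1, against 37.4% of all windows, and the 2 motifs overlapped in 0 of the member windows. The member windows held between 55.3% (Sparc) and 74.0% (Col4a1) G and C. The GGGCGG match of Col4a1 lies in the 78 shared bases and is the same DNA as 1 of the 3 counted in Col4a2. A match is a string of letters and not a site of action.

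The 3' ends of these genes are shown for 3 microRNA families that are background to the knockouts: miR-29, known in other cells to target collagens, the miR-294 family, which is abundant in mouse embryonic stem cells, and let-7. One mature sequence of each family from RefSeq is given with its seed, bases 2 to 8, in capitals.

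miR-29a-3p: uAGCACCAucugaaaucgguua

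miR-294-3p: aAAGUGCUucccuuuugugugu

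let-7a-5p: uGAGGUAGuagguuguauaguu

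The longest annotated 3' UTR of each member (GENCODE M21, GRCm38) was searched for 7-letter matches, TGGTGCT or GGTGCTA for miR-29, AGCACTT or GCACTTA for miR-294 and CTACCTC or TACCTCA for let-7. The 2 forms of a family overlap and a joint match was counted 1 time. Of 10933 UTRs in the table, 19.1% held a miR-29 match, 21.1% a miR-294 match and 17.1% a let-7 match, and the share depends on UTR length. A miR-29 match was found in 6 of the 10 members: 2 each in Col4a1, Col4a2 and Sparc and 1 each in Lamc1, Nid2 and Hspg2. The collagen IV matches are shown because this pair changed most, with the matching letters in capitals.

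Col4a1, chr8:11199754-11199780, minus strand: accgtcacaacaTGGTGCTactccccc

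Col4a1, chr8:11199450-11199476, minus strand: aagaaacccaaaGGTGCTAggggcgtg

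Col4a2, chr8:11448347-11448373, plus strand: ggaaggccacgtTGGTGCTtatccttc

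Col4a2, chr8:11448518-11448544, plus strand: ccacacccagctTGGTGCTtactctta

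A let-7 match was found in 4 of the 10 members, 2 in Nid1 and 1 each in Col4a1, Col4a2 and Nid2, and a miR-294 match in 2, with 1 each in Col4a2 and Nid1. Lama1, Lama5 and Lamb1, whose UTRs are 198, 174 and 151 bases long, held no match of the 3 families. The let-7 matches of Nid1, whose UTR has 2202 bases, are shown because Nid1 was the member with the highest fold in any knockout, although that difference was not called.

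Nid1 let-7 match, chr13:13511835-13511861, plus strand: gaacagagccccCTACCTCcttttctt

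Nid1 let-7 match, chr13:13511885-13511911, plus strand: caaccctatctcCTACCTCcacctcga

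The members called lower in a knockout, given below with the shares of all genes, were Col4a1 and Col4a2, with a miR-29 match, and Lama1 and Lamb1, without one. Whether any microRNA acts on these letters in these cells was not tested.

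Both collagen IV chains (Col4a1, Col4a2) and the laminin alpha 1 chain (Lama1) fell relative to WT in each of the Drosha, Dicer and Ago knockouts, by 8.41 to 36.6-fold, and the laminin beta 1 chain (Lamb1) fell in Dicer and Ago knockouts, by 4.40 and 3.16-fold. The gamma 1 chain, the alpha 5 chain, both nidogens, perlecan and Sparc were not called in any single knockout. In edgeR's quasi-likelihood fit to all 10 libraries, with Benjamini-Hochberg adjustment over 10978 genes at 0.05, 3 of 10 members were called lower in Drosha knockout, where 0.966% of all tested genes were called lower. The count was 4 of 10 in Dicer knockout, where 3.76% of genes were called lower, and 4 of 10 in Ago knockout, where 0.902% were. In the libraries labelled Dgcr8 knockout 0 of 10 were called, where 0.0182% of genes were called lower. For this label 3 members had an unadjusted p under 0.05, as did 1077 of the 10978 genes. DESeq2 called 0 members for this label as well. No member was called higher in any comparison with WT, where 0.0547% of genes were called higher for the label Dgcr8 knockout, 2.48% in Drosha, 7.35% in Dicer and 1.98% in Ago knockout. The median member log2 fold change was -0.85 in the libraries labelled Dgcr8 knockout, -1.18 in Drosha, -0.78 in Dicer and -0.95 in Ago knockout, beside medians of 0.02, -0.01, -0.00 and 0.04 over all genes in the same order. All 4 comparisons share the 2 WT libraries. In footprints of bulk samples, fewer cells of a type, less RNA per cell and fewer ribosomes per RNA cannot be told apart.

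The counts of called members depended on single libraries. Without either Drosha library or either WT library, 0 members were called in Drosha knockout, and 1 was without Dicer replicate 2. Without either Dicer library, or without WT replicate 2, 1 member was called in Dicer knockout. In Ago knockout 0 were called without Ago replicate 2 or either WT library, 1 without Ago replicate 1, 2 without either Dicer library and 3 without Drosha replicate 1. In the libraries labelled Dgcr8 knockout 3 were called without replicate 1. In each of these refits the 4 named chains stayed lower than WT in the 3 knockouts.

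**Figure D1:**
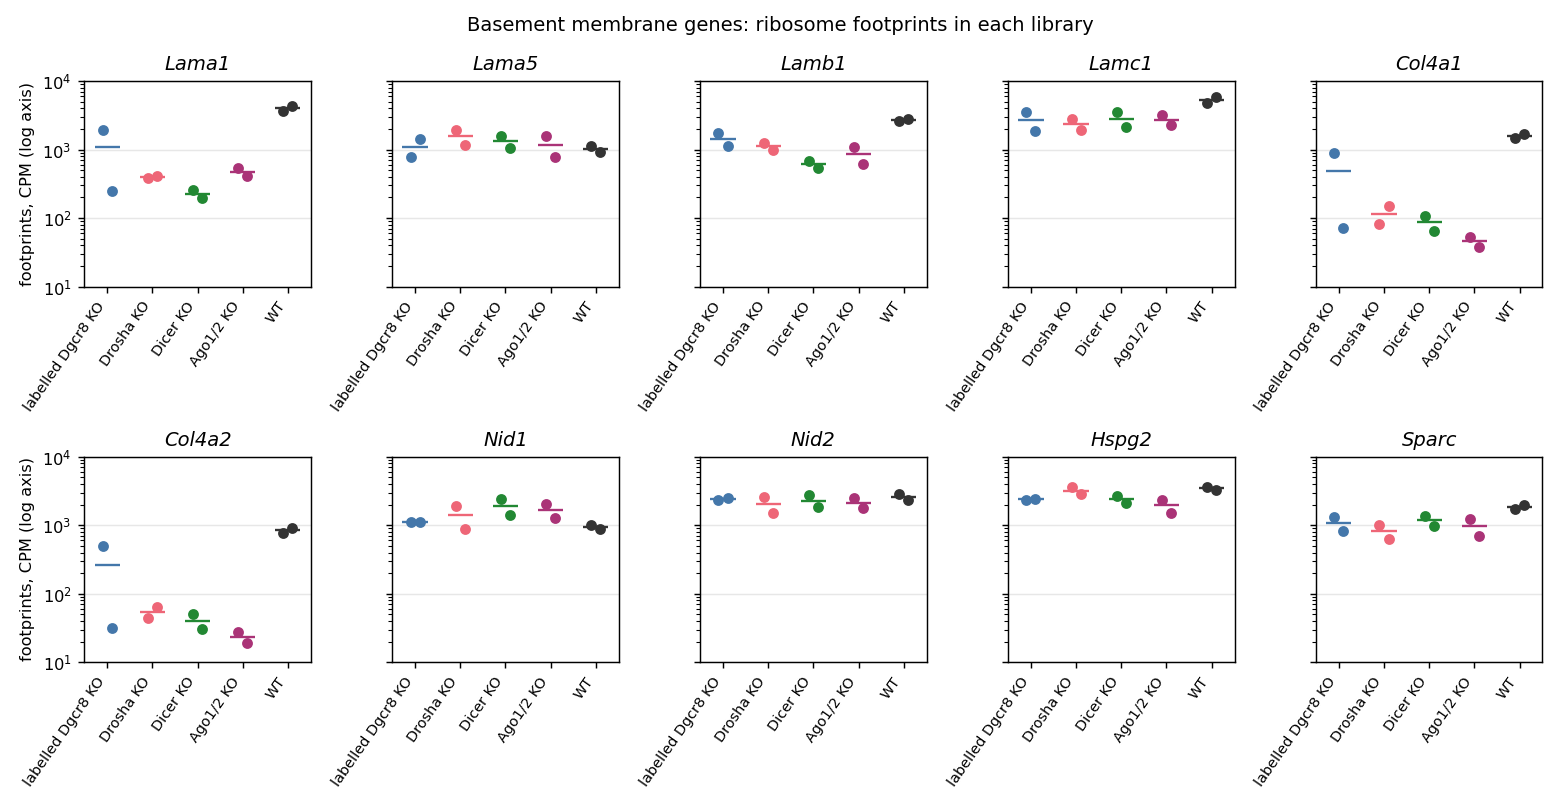
Footprints of each of the 10 genes in CPM (log axis) in every library, by group with WT at the right. Points are libraries and bars are group means of 2 libraries. Col4a1, Col4a2 and Lama1 sit far below WT in all knockout libraries but the first labelled Dgcr8 knockout, while Nid2 overlaps WT in every group.

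Col4a1 encodes the alpha 1 chain of collagen IV. Its footprints were 900 and 71.7 CPM in the libraries labelled Dgcr8 knockout, 80.7 and 149 CPM in Drosha, 109 and 64.5 CPM in Dicer and 53.8 and 37.5 CPM in Ago knockout, against 1455 and 1685 CPM in WT. Every knockout library lay below both WT libraries, and the first library labelled Dgcr8 knockout lay between WT and the other 7 knockout libraries. The fold was 13.7 lower in Drosha (log2 -3.77, SE 0.86, adjusted p = 0.037), 17.98 lower in Dicer (-4.17, SE 0.87, adjusted p = 0.012) and 34.5 lower in Ago knockout (-5.11, SE 0.91, adjusted p = 0.017). Over the libraries left out in turn the log2 value ran from -4.28 to -3.40 in Drosha, -4.60 to -3.85 in Dicer and -5.39 to -4.87 in Ago knockout. Its call was lost without either library of the knockout itself or without WT replicate 2 in all 3, without WT replicate 1 in Drosha and Ago knockout, and without Dicer replicate 2 in Drosha knockout, with adjusted p up to 0.21, 0.091 and 0.17 in Drosha, Dicer and Ago knockout. With limma-voom the Drosha value was not called either (adjusted p = 0.078).

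Col4a2, the alpha 2 chain that joins a pair of alpha 1 chains in the common collagen IV helix, followed Col4a1 library by library. It had 495 and 31.5 CPM in the libraries labelled Dgcr8 knockout, 44.3 and 64.7 CPM in Drosha, 50.8 and 30.3 CPM in Dicer and 27.2 and 18.8 CPM in Ago knockout, against 763 and 921 CPM in WT. The groups did not overlap WT. The fold was 15.4 lower in Drosha (log2 -3.95, SE 0.90, adjusted p = 0.037), 20.4 lower in Dicer (-4.35, SE 0.92, adjusted p = 0.013) and 36.6 lower in Ago knockout (-5.20, SE 0.94, adjusted p = 0.018). It lost its call without the same libraries as Col4a1, with adjusted p up to 0.21 in Drosha, 0.091 in Dicer and 0.17 in Ago knockout, and under limma-voom in Drosha knockout (adjusted p = 0.12). The 22 bases where their exons overlap could give reads to either gene, since the strand setting of the counting is not given in the sources used here.

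Per kb of coding sequence, which allows genes to be compared, the ratio of Col4a1 to Col4a2 footprints stayed between 1.86 and 2.35 in all 10 libraries, while the level of Col4a1 spanned 45.0-fold. It was 1.86 and 2.33 in the libraries labelled Dgcr8 knockout, 1.86 and 2.35 in Drosha libraries, 2.19 and 2.18 in Dicer libraries and 2.02 and 2.04 in Ago knockout, against 1.95 and 1.87 in WT. These ratios use the longest annotated coding sequences, 5007 bases for Col4a1 and 5121 for Col4a2. With the mean length over annotated transcripts, which for Col4a1 counts short forms, group means were 4.93, 4.95, 5.13, 4.77 and 4.49 in the same order, so the size of the ratio rests on the choice of length. Over the 10 libraries log2 CPM of the pair had a Pearson r of 0.999, a description over libraries that share cell line and, within groups, genotype.

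**Figure D2:**
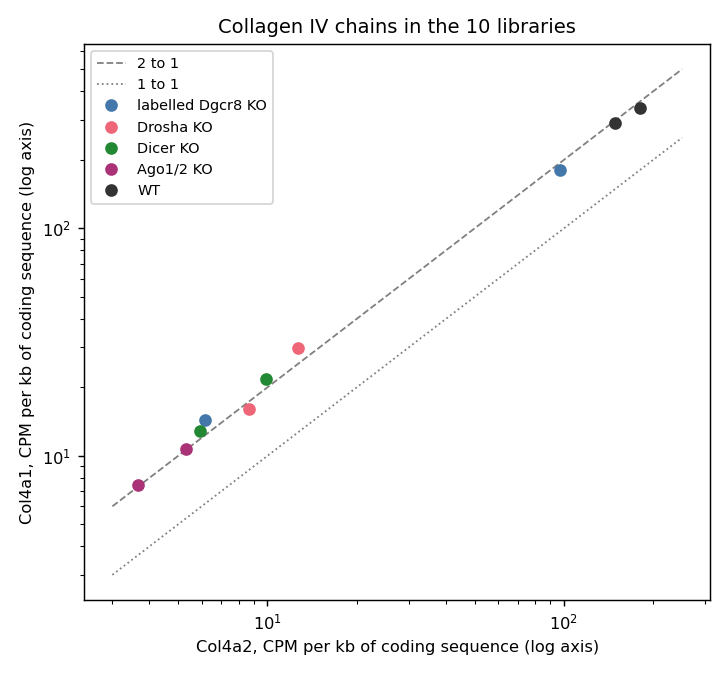
Col4a1 against Col4a2 footprints per kb of coding sequence in the 10 libraries (both axes log, CPM per kb), with lines at ratios of 2 to 1 and 1 to 1. The points lie along the upper line from 7.48 CPM per kb for Col4a1 in an Ago knockout library to 337 in a WT library.

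Lama1 encodes the alpha chain of laminin-111. Its footprints were 1920 and 246 CPM in the libraries labelled Dgcr8 knockout, 389 and 411 CPM in Drosha, 259 and 195 CPM in Dicer and 535 and 416 CPM in Ago knockout, against 3684 and 4312 CPM in WT. No knockout library reached the lower WT library, and again the first library labelled Dgcr8 knockout was the highest of the 8. Lama1 was 9.995-fold lower in Drosha (log2 -3.32, SE 0.70, adjusted p = 0.030), 17.6-fold lower in Dicer (-4.14, SE 0.72, adjusted p = 0.0050) and 8.41-fold lower in Ago knockout (-3.07, SE 0.69, adjusted p = 0.039). The Drosha call was lost without either Drosha or either WT library (adjusted p up to 0.20) and the Dicer call without Dicer replicate 1 (0.052). The Ago call was lost without either Ago, Dicer or WT library or without Drosha replicate 1 (up to 0.24).

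Lamb1, the beta chain of the same trimer, fell less. It had 1756 and 1117 CPM in the libraries labelled Dgcr8 knockout, 1242 and 979 CPM in Drosha, 689 and 538 CPM in Dicer and 1102 and 608 CPM in Ago knockout, against 2615 and 2791 CPM in WT. All 8 knockout libraries lay below WT. Lamb1 was 4.40-fold lower in Dicer (log2 -2.14, SE 0.37, adjusted p = 0.0049) and 3.16-fold lower in Ago knockout (-1.66, SE 0.36, adjusted p = 0.035). In Drosha knockout its log2 value of -1.28 (SE 0.36) had an adjusted p of 0.076, which became 0.046 and 0.049 without Ago replicate 1 and without Ago replicate 2, and 0.0070 with DESeq2. The Dicer call was lost without Dicer replicate 2 or WT replicate 2 (adjusted p up to 0.052) and the Ago call without either Dicer library, Ago replicate 2 or either WT library (up to 0.26).

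Lamc1, the gamma chain that most laminins share, had 3533 and 1876 CPM in the libraries labelled Dgcr8 knockout, 2825 and 1897 CPM in Drosha, 3490 and 2160 CPM in Dicer and 3173 and 2267 CPM in Ago knockout, against 4800 and 5811 CPM in WT. The groups did not overlap WT, yet no single knockout passed the test, with log2 values between -1.17 in Drosha (SE 0.40, adjusted p = 0.13) and -0.91 in Dicer knockout (SE 0.40, adjusted p = 0.17). DESeq2 called it in Drosha knockout (adjusted p = 0.032), and the fit to Dicer and WT libraries alone called it in Dicer knockout (adjusted p = 0.048).

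Lama5, the alpha chain of laminin-511, overlapped WT in all groups but Drosha knockout. It had 772 and 1416 CPM in the libraries labelled Dgcr8 knockout, 1949 and 1184 CPM in Drosha, 1552 and 1069 CPM in Dicer and 1574 and 772 CPM in Ago knockout, against 1128 and 917 CPM in WT. Both Drosha libraries lay above WT. Its log2 values lay between 0.10 (SE 0.42) for the label Dgcr8 knockout and 0.62 (SE 0.42, adjusted p = 0.47) in Drosha knockout. Over the mean of the 4 knockouts the 95% interval of its log2 value was -0.43 to 1.06.

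Set per kb of coding sequence, Lama5 was the more abundant alpha chain in 7 of the 8 knockout libraries and Lama1 in both WT libraries. Lama1 took 74.3% and 17.1% of the footprint density of the measured alpha chains (Lama1, Lama3, Lama4, Lama5) in the libraries labelled Dgcr8 knockout, 18.9% and 28.7% in Drosha libraries, 15.3% and 17.0% in Dicer libraries and 27.8% and 38.8% in Ago knockout, against 79.3% and 84.6% in WT. Lama3 and Lama4 stayed at or below 5.01 and 10.2 CPM per kb in every library, so the alpha chains measured were almost all Lama1 and Lama5. The density of Lama5 was 69.2 and 127 CPM per kb in the libraries labelled Dgcr8 knockout, 175 and 106 in Drosha libraries, 139 and 95.9 in Dicer libraries and 141 and 69.3 in Ago knockout, against 101 and 82.2 in WT. Beside Lamc1, the summed alpha chains had a ratio of 0.381 and 0.400 in the libraries labelled Dgcr8 knockout, 0.381 and 0.393 in Drosha libraries, 0.252 and 0.276 in Dicer libraries and 0.317 and 0.246 in Ago knockout, against 0.505 and 0.457 in WT. The ratio of Lamb1 to Lamc1 was 0.436 and 0.522 in the libraries labelled Dgcr8 knockout, 0.385 and 0.452 in Drosha knockout, 0.173 and 0.218 in Dicer knockout and 0.304 and 0.235 in Ago knockout, against 0.477 and 0.421 in WT. The Dicer and Ago libraries lay below both WT libraries in this ratio, and the others did not as groups. With the mean transcript length the group means of this ratio were 0.378 for the label Dgcr8 knockout, 0.331 in Drosha, 0.155 in Dicer and 0.213 in Ago knockout, against 0.355 in WT. A change of length scales the ratio equally in all libraries, so the order of groups could not change. These ratios are descriptions with no test.

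**Figure D3:**
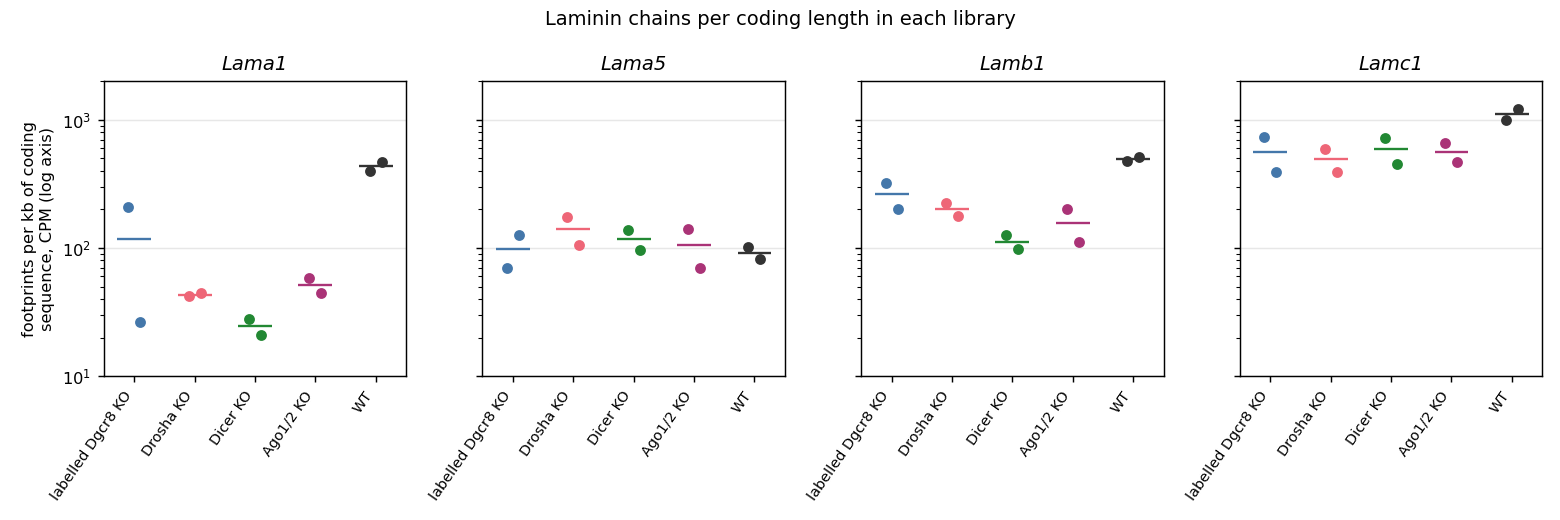
Footprints per kb of coding sequence (CPM per kb, log axis) of the laminin chains Lama1, Lama5, Lamb1 and Lamc1 in every library, with bars at group means of 2 libraries and WT at the right. Lama1 is at 57.9 CPM per kb or less in the Drosha, Dicer and Ago knockout libraries and at 398 and 466 in WT, while Lama5 overlaps WT in 3 of the 4 knockout groups.

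The linkers showed no called change. Nid1, which ties laminin gamma 1 to collagen IV, had 1097 and 1102 CPM in the libraries labelled Dgcr8 knockout, 1937 and 879 CPM in Drosha, 2432 and 1424 CPM in Dicer and 2022 and 1292 CPM in Ago knockout, against 1025 and 873 CPM in WT. All libraries but 1 of Drosha knockout lay above both WT libraries. Its log2 value was 1.02 in Dicer (SE 0.41, adjusted p = 0.13) and 0.80 in Ago knockout (SE 0.41, adjusted p = 0.30), and the fit to Dicer and WT libraries alone called it in Dicer knockout (adjusted p = 0.022). Nid2, its paralog, had between 1515 and 2757 CPM over the 8 knockout libraries, against 2855 and 2358 CPM in WT, with log2 values between -0.35 and -0.11. Per kb, the ratio of Nid1 to Nid2 was 0.526 and 0.502 in the libraries labelled Dgcr8 knockout, 0.847 and 0.654 in Drosha libraries, 0.994 and 0.883 in Dicer libraries and 0.917 and 0.825 in Ago knockout, against 0.405 and 0.417 in WT. This ratio was thus above WT in all 8 knockout libraries, and it was not tested.

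Hspg2 encodes perlecan, the large heparan sulfate proteoglycan of basement membranes. It had 2350 and 2407 CPM in the libraries labelled Dgcr8 knockout, 3592 and 2835 CPM in Drosha, 2668 and 2098 CPM in Dicer and 2361 and 1529 CPM in Ago knockout, against 3660 and 3297 CPM in WT. All groups but Drosha knockout lay below WT, and its lowest log2 value was -0.84 in Ago knockout (SE 0.32, adjusted p = 0.17), called by DESeq2 alone of the alternatives without the replicate block (adjusted p = 0.0495). Sparc, a collagen-binding matricellular protein, had 1331 and 822 CPM in the libraries labelled Dgcr8 knockout, 1009 and 620 CPM in Drosha, 1380 and 978 CPM in Dicer and 1253 and 688 CPM in Ago knockout, against 1702 and 2003 CPM in WT. All 8 knockout libraries lay below WT, with log2 values between -1.19 in Drosha (SE 0.39, adjusted p = 0.12) and -0.65 in Dicer knockout (SE 0.39, adjusted p = 0.31). DESeq2 called Sparc in Drosha knockout (adjusted p = 0.032).

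**Figure D4:**
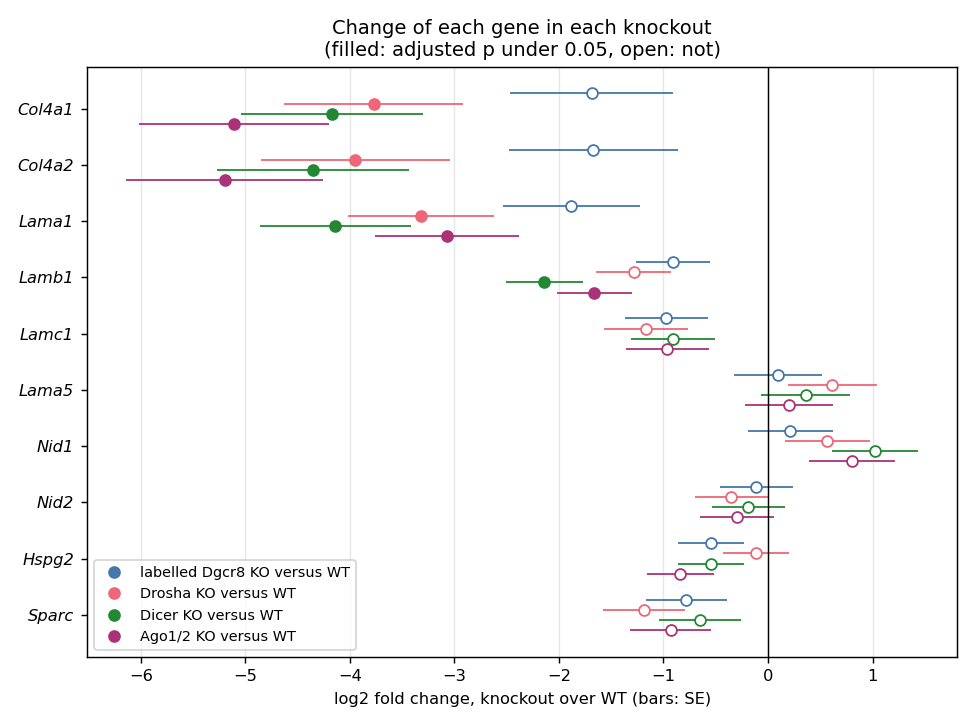
Log2 fold change of each gene, knockout over WT, from edgeR, with bars of 1 SE. Filled points have an adjusted p under 0.05 and open points do not. Col4a1, Col4a2 and Lama1 have filled points in the Drosha, Dicer and Ago knockouts and Lamb1 in Dicer and Ago knockouts, and the other 6 genes have open points only.

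Averaged over the 4 knockouts, 4 of 10 members were called lower, where 3.26% of all genes were. Lama1 had a log2 value of -3.10 (SE 0.43, adjusted p = 0.0042), Col4a1 -3.68 (SE 0.52, adjusted p = 0.0042), Col4a2 -3.79 (SE 0.54, adjusted p = 0.0043) and Lamb1 -1.50 (SE 0.25, adjusted p = 0.0082). Lamc1 at -1.003 (SE 0.29, adjusted p = 0.061) and Sparc at -0.89 (SE 0.29, adjusted p = 0.086) missed the threshold, and DESeq2 called both. Without WT replicate 2, 0 members were called, and without WT replicate 1, 3 were, Lamb1 being lost. With both libraries labelled Dgcr8 knockout left out, an alternative chosen after seeing the data, 5 members were called lower, where 5.31% of genes were. Lama1 was then at -3.51 (SE 0.22, adjusted p = 3.7e-05), Col4a1 at -4.35 (SE 0.27, adjusted p = 3.7e-05), Col4a2 at -4.50 (SE 0.25, adjusted p = 3.7e-05), Lamb1 at -1.69 (SE 0.26, adjusted p = 0.0035) and Lamc1 at -1.01 (SE 0.29, adjusted p = 0.046).

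The libraries labelled Dgcr8 knockout differed from each other 12.6-fold for Col4a1 and 7.81-fold for Lama1. Their group values for Lama1, at a log2 of -1.88 (SE 0.66, adjusted p = 0.37), Col4a1, at -1.69 (SE 0.78, adjusted p = 0.51), and Col4a2, at -1.67 (SE 0.81, adjusted p = 0.53), are means over that spread. Without replicate 1, the deepest library of all, the second library alone was at -4.02 for Lama1 (adjusted p = 0.0073), -4.45 for Col4a1 (adjusted p = 0.012) and -4.74 for Col4a2 (adjusted p = 0.0073), where its spread is taken to be that of the other groups.

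Of the summed counts, the 10 members took 1.68% and 1.17% in the libraries labelled Dgcr8 knockout, 1.60% and 1.08% in Drosha libraries, 1.43% and 1.07% in Dicer libraries and 1.47% and 0.902% in Ago knockout, against 2.32% and 2.54% in WT. The collagen IV pair alone took no more than 0.0219% in any library of Drosha, Dicer or Ago knockout and 0.142% and 0.0105% in those labelled Dgcr8 knockout, against 0.217% and 0.265% in WT. By mean density per kb the order in Dicer knockout was Sparc (1184 CPM per kb), Lamc1 (586), Nid2 (543), Nid1 (516), Hspg2 (181), Lama5 (118), Lamb1 (112), Lama1 (24.5), Col4a1 (17.3) and Col4a2 (7.92). In WT it was Sparc (1860 CPM per kb), Lamc1 (1100), Nid2 (619), Lamb1 (491), Lama1 (432), Col4a1 (314), Hspg2 (265), Nid1 (254), Col4a2 (164) and Lama5 (91.7). Sparc, Lamc1 and Nid2 thus headed both orders, and Lama1, Col4a1 and Col4a2 were the last 3 in Dicer knockout. Among neighbours in the order, Lamc1, Nid2 and Nid1 overlap in Dicer knockout, as do Lama5 and Lamb1, and Lama1 and Col4a1. In WT Hspg2 and Nid1 overlap.

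Whether the knockouts differed from each other was tested directly in 6 pairs. Of 60 member tests 0 were called by edgeR, and 11 had an unadjusted p under 0.05. In each pair between 829 and 2088 of the 10978 genes had one as well. The smallest adjusted p of a member was 0.087, for Lamb1 in Dicer against the libraries labelled Dgcr8 knockout (log2 -1.23). Of all genes, 0.501% were called in Drosha, 4.07% in Dicer and 0.483% in Ago knockout against the label Dgcr8 knockout, 0.00911% in Dicer and 0.0455% in Ago against Drosha knockout, and 0.547% in Ago against Dicer knockout. For Col4a1 the log2 difference was -1.33 in Ago against Drosha knockout, with a 95% interval of -3.06 to 0.39, and -0.94 in Ago against Dicer knockout, with an interval of -2.65 to 0.77. Lama1 in Dicer against Drosha knockout was at -0.82 with an interval of -2.23 to 0.59, and Lamb1 at -0.86 with an interval of -1.63 to -0.08 (adjusted p = 0.61). These intervals are unadjusted and wide, so the data do not show that the 3 knockouts act alike. In order of mean level, Col4a1 was at 45.6 ± 11.5 CPM in Ago, 86.7 ± 31.3 CPM in Dicer and 115 ± 48.0 CPM in Drosha knockout, 486 ± 586 CPM under the label Dgcr8 knockout and 1570 ± 163 CPM in WT (SD, n = 2 each). DESeq2 called 2 members each in Ago and in Dicer knockout against the label Dgcr8 knockout. Without replicate 2 of that label edgeR called 3 in each of the 3 pairs that involve it.

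Enzymes and export factors for collagen in the secretory pathway were among the genes that fell. Of 18 measured genes of a list of 23, 4 were called lower and 0 higher over the mean of the 4 knockouts. Of all genes 3.26% were called lower there. The list median was -0.20 beside -0.00 over all genes. Plod2, a lysyl hydroxylase of collagen, had 361 and 129 CPM in the libraries labelled Dgcr8 knockout, 114 and 67.7 CPM in Drosha, 61.9 and 61.2 CPM in Dicer and 73.8 and 88.5 CPM in Ago knockout, against 513 and 461 CPM in WT (mean log2 -2.24, SE 0.29, adjusted p = 0.0035). P4ha2, a catalytic subunit of collagen prolyl 4-hydroxylase, was at -2.08 (SE 0.35, adjusted p = 0.0079), its paralog P4ha1 at -1.47 (SE 0.36, adjusted p = 0.031), and Klhl12, an adaptor for the export of large collagen cargo, at -0.999 (SE 0.26, adjusted p = 0.044). All 4 calls were lost without WT replicate 2, those of P4ha2, P4ha1 and Klhl12 also without WT replicate 1, that of P4ha1 without Dicer replicate 2, and that of Klhl12 without either Dicer library, Drosha replicate 2 or Ago replicate 2 (adjusted p up to 0.083 for Plod2, 0.13 for P4ha2, 0.26 for P4ha1 and 0.49 for Klhl12). P4ha2 was also 1 of the 5 genes most like Col4a1 over the libraries.

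Few matrix receptors were called. Of 20 measured genes of a list of 23, 0 were called lower and 1 higher over the mean of the 4 knockouts. Of all genes 3.81% were called higher there, so 1 of 20 is near that share. The list median was 0.05. The called gene was Itgb4, the beta chain of the laminin-binding integrin alpha 6 beta 4 of hemidesmosomes. It had 63.4 and 46.0 CPM in the libraries labelled Dgcr8 knockout, 179 and 142 CPM in Drosha, 245 and 152 CPM in Dicer and 182 and 79.4 CPM in Ago knockout, against 42.2 and 26.1 CPM in WT (mean log2 1.85, SE 0.37, adjusted p = 0.016). It was called in Drosha (2.23, adjusted p = 0.022), Dicer (2.54, adjusted p = 0.0049) and Ago knockout (1.94, adjusted p = 0.036), and the mean was not called without either WT library (adjusted p up to 0.29). Single knockouts lost it without WT replicate 2 in all 3, without WT replicate 1 in Drosha and Ago, without Drosha replicate 1 in Drosha and without Ago replicate 1 in Ago knockout. The integrin chains Itgb3 at 1.41 (SE 0.40, adjusted p = 0.055), Itgav at 1.32 (SE 0.40, adjusted p = 0.066) and Itgb5 at 0.89 (SE 0.37, adjusted p = 0.17) were not called over that mean. In Dicer knockout Itgb3 (log2 2.34, SE 0.48, adjusted p = 0.011) and Itgav (2.12, SE 0.47, adjusted p = 0.016) were called higher beside Itgb4, 3 of the 20 against 7.35% of all genes. Both calls were lost without Dicer replicate 1 or either WT library (adjusted p up to 0.14).

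Few other basement membrane genes were called. Of 18 measured genes of a list of 30, 1 was called lower and 1 higher over the mean of the 4 knockouts. Of all genes 3.26% were called lower and 3.81% higher there, so 1 of 18 each way is near these shares. The list median was 0.30. Tgfbi, a matrix protein that binds collagens, was lower (mean log2 -2.43, SE 0.37, adjusted p = 0.0061), and Npnt, an integrin ligand of basement membranes, was higher (1.75, SE 0.43, adjusted p = 0.033). Smoc1, a calcium-binding protein of basement membranes, at 0.87 (SE 0.32, adjusted p = 0.12) was not called. The Tgfbi call was lost without WT replicate 2 (adjusted p = 0.088) and the Npnt call without Dicer replicate 1 or either WT library (up to 0.41). Of 18 measured genes for matrix turnover of a list of 26, 5 were called lower and 1 higher over that mean. The list median was -0.56. The protease inhibitor Serpine2 was at -2.36 (SE 0.47, adjusted p = 0.015), the membrane-anchored metalloproteinase Mmp15 at -1.71 (SE 0.38, adjusted p = 0.022) and the lysyl oxidase homologue Loxl2 at -2.41 (SE 0.61, adjusted p = 0.036). These 3 calls were lost without either WT library, and that of Loxl2 also without either Dicer library (adjusted p up to 0.30).

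Among 8498 genes with a mean of at least 10 CPM, those with log2 CPM most like Col4a1 over the 10 libraries were Amn (Pearson r 0.979), Dab2 (0.978), Orc2 (0.970), Phldb2 (0.959) and P4ha2 (0.959). Amn, which carries cubilin to the membrane, and Dab2, an endocytic adaptor, are on the list of endoderm markers. Among members, r with Col4a1 was 0.921 for Lama1, 0.875 for Lamb1, 0.786 for Lamc1, 0.726 for Sparc, 0.588 for Hspg2, 0.339 for Nid2, -0.403 for Lama5 and -0.572 for Nid1. Those most like the standardised mean of the members were Insig2 and Tram1 (both 0.960), Reep4 (0.952), Ctsc (0.948) and Kdsr (0.944). The points share groups and WT stands at one end, so these values describe the pattern and carry no test.

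Most markers of primitive and visceral endoderm fell with the collagen IV pair and Lama1. Of 10 listed markers in the table of 17, 8 were called lower and 0 higher over the mean of the 4 knockouts. Apoe, at a mean log2 of 0.14 (SE 0.32, adjusted p = 0.84), and Rbp4, at -0.94 (SE 0.56, adjusted p = 0.34), were not called. In Drosha knockout Rbp4 was at 0.48 (SE 0.75, adjusted p = 0.78). The number called lower was 0 for the label Dgcr8 knockout, 3 in Drosha, 7 in Dicer and 6 in Ago knockout. Of all genes 0.0182%, 0.966%, 3.76% and 0.902% were called lower in that order, and 3.26% over the mean. Every Drosha call of these markers was lost without either Drosha or either WT library. Every Dicer call was lost without Dicer replicate 1 and every Ago call without WT replicate 2. Cubn, the cubilin receptor of visceral endoderm, had 578 and 11.4 CPM in the libraries labelled Dgcr8 knockout, 0.528 and 6.99 CPM in Drosha, 3.76 and 3.31 CPM in Dicer and 3.32 and 0.207 CPM in Ago knockout, against 1050 and 981 CPM in WT. Like Col4a1, it was high in the first and low in the second library labelled Dgcr8 knockout. Gata6, a defining factor of primitive endoderm, had 15.2 and 1.59 CPM in the libraries labelled Dgcr8 knockout, 0 and 4.37 in Drosha libraries, 0 and 0 in Dicer libraries and 0 and 0.415 in Ago knockout, against 17.5 and 46.6 CPM in WT, and Sox17 was at 0 in Dicer replicate 2 and Ago replicate 1.

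The summed level of the 10 endoderm markers, mostly Apoe and Lrp2, was 4920 and 2770 CPM in the libraries labelled Dgcr8 knockout, 3480 and 2580 CPM in Drosha, 3530 and 2070 CPM in Dicer and 4080 and 2140 CPM in Ago knockout, against 5640 and 4490 CPM in WT. Of 8 parietal endoderm markers of 10 listed, 5 were called lower and 0 higher over the mean of the 4 knockouts. The number called lower was 0 for the label Dgcr8 knockout, 1 in Drosha, 5 in Dicer and 1 in Ago knockout. The shares of all genes called lower are those given above for the same comparisons. The sums of the parietal markers were 160 to 516 CPM in knockout libraries and 389 and 471 CPM in WT. A large part was Vim, which was not called, at 141 to 465 CPM in knockout libraries and 186 and 240 CPM in WT. Gpx3 was at 21.4 and 4.38 CPM in the libraries labelled Dgcr8 knockout, at 0 to 1.66 CPM in the other knockout libraries and at 24.2 and 28.3 CPM in WT. Of these endoderm markers only Sox17 kept its call over the mean of the 4 knockouts without WT replicate 2, and Lrp2 also lost its call without either Drosha or Dicer library, Ago replicate 2 or WT replicate 1. The part of the endoderm markers in the fall of the basement membrane chains was not tested. Of 5 trophectoderm markers of 10 listed, 2 were called higher over the mean of the 4 knockouts, where 3.81% of all genes were. The number called higher was 0 for the label Dgcr8 knockout, 2 in Drosha, 4 in Dicer and 0 in Ago knockout. Of all genes 0.0547%, 2.48%, 7.35% and 1.98% were called higher in that order. In Dicer knockout Krt8 was at 332 and 207 CPM, against 26.8 and 36.5 CPM in WT, a difference of 3.09 on the log2 scale (SE 0.35, adjusted p = 0.0013), and Krt18, Krt19 and Krt7 were the other called keratins of simple epithelia. The Dicer calls of Krt7 and Krt19 were lost without Dicer replicate 1 or WT replicate 1, and that of Krt7 also without WT replicate 2, while both Drosha calls, Krt7 and Krt18, were lost without either Drosha or WT library and that of Krt7 also without either Dicer library. The part of these markers in the results was not tested. The sums of the 5 markers were 157 to 857 CPM in knockout libraries and 150 and 182 CPM in WT. Of 5 fibroblast markers of 14 listed, 1 was called lower over the mean of the 4 knockouts, where 3.26% of all genes were. Their sums, mostly Fn1, were 4930 to 9410 CPM in knockout libraries and 10100 and 8430 CPM in WT. Of the 10 pluripotency markers 1 was called lower, Klf4 (mean log2 -1.84, adjusted p = 0.0035), and 0 higher, and the calls of these 3 lists over the mean of the 4 knockouts were lost without WT replicate 2. In Dicer knockout the calls of Krt8, Krt18 and Klf4 were kept in all 10 fits that left out 1 library.

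**Figure D5:**
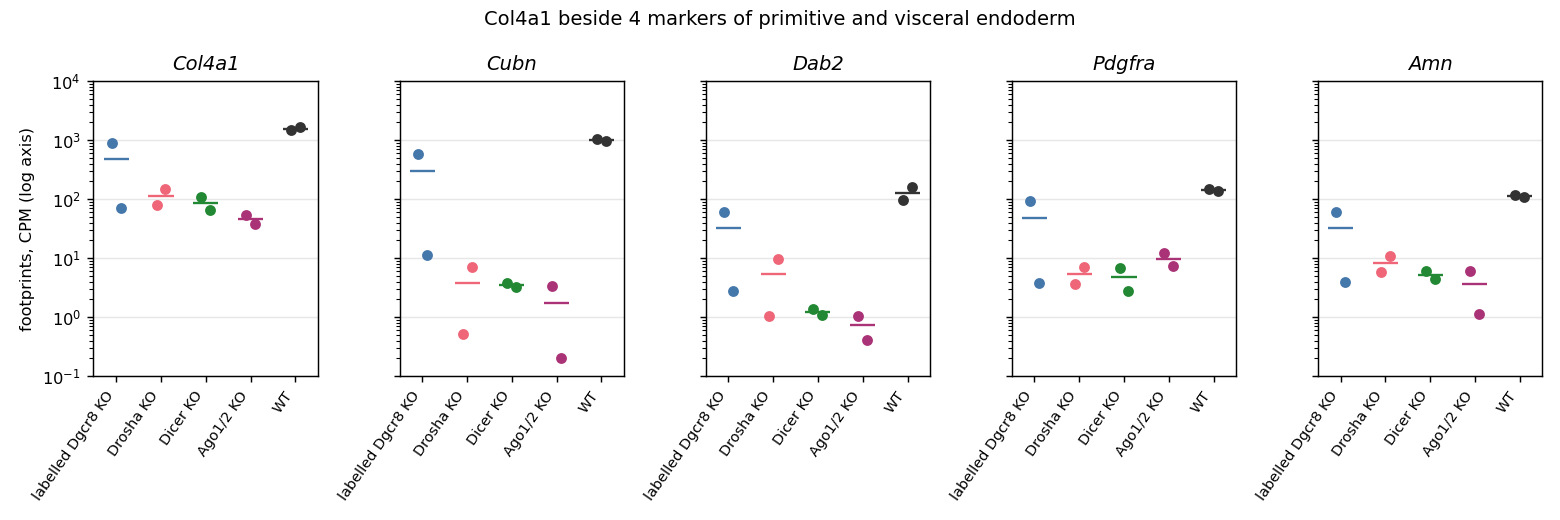
Footprints of Col4a1 beside the endoderm markers Cubn, Dab2, Pdgfra and Amn in every library (CPM, log axis), with bars at group means of 2 libraries and WT at the right. All 5 genes are low in 7 of the 8 knockout libraries and higher in the first library labelled Dgcr8 knockout and in WT. In those 7 Col4a1 keeps 37.5 to 149 CPM where Cubn has 0.207 to 11.4 CPM. The listed markers Apoe and Rbp4, which were not called over the mean of the knockouts, are not shown.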

How the data were processed

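Ribosome footprints were sequenced from 10 E14 libraries. The table deposited by the authors holds whole-number counts per gene, not normalized, and it gives each symbol with an Ensembl identifier. The tools Trimmomatic and Bowtie2 and the builds mm10 and dm6 are named, per the submitters' processing notes; versions, annotation, counting tool and strand setting are not given in the sources used here. Reads of overlapping antisense genes (Col4a1 with Col4a2, Col4a2 with Gm15419, Nid1 with Gm48682, Nid2 with Rtraf) therefore cannot be told apart. Columns were matched to samples by the library number in the labels, and where column and title differed in the Ago replicate number, the title's was used. All 11011 identifiers were found in GENCODE M21, and 16 symbols turned into dates were replaced.

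Tests used edgeR 4.0.16 in R 4.3.3 (TMM, filterByExpr, 1 mean per group, quasi-likelihood test, 2-sided, Benjamini-Hochberg within each comparison at 0.05), which left 10978 genes, all 10 members among them, with 5 residual degrees of freedom. The SE is the size of the log2 change divided by the root of F, and 95% intervals derive from it. Called means an adjusted p under 0.05. Densities divide CPM by the longest annotated coding length in kb. DESeq2 1.42.0, limma-voom (limma 3.58.1), other scalings, filters, a fit to the compared groups alone, a replicate block and leaving out each library were tried. The model was tested on simulated data. All members were named, and up to 4 genes per list, by smallest adjusted p over the mean of the 4 knockouts, except that a few genes of these lists are not reported here. The members and lists were chosen with earlier results of these data known. Depth sets counting error only, and PCR copies are not independent molecules.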

Additional observations from a re-analysis of the deposited data

How the results depend on the processing

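RLE size factors, total counts as library sizes, no filter and a filter of at least 1 CPM in every library left every count of called members in the 11 comparisons as it was, and the 2 other scalings moved the median log2 fold change of all genes by at most 0.0382. DESeq2 called 6 members in Drosha knockout, 2 in Ago and 2 in Dicer knockout against the label Dgcr8 knockout. The limma-voom fit called 1 in Drosha knockout. The fit to compared groups alone called 6 in Dicer knockout. Leaving out 1 library at a time gave 0 to 3 called members for the label Dgcr8 knockout, 0 to 4 in Drosha, 1 to 4 in Dicer and 0 to 4 in Ago knockout, 0 to 5 for the mean of the 4 knockouts, and 0 to 3 in each pair with the label Dgcr8 knockout. The cause was not tested. With 1 library left in a group, that library is assumed to vary like the others.

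Same-numbered libraries deviated together with correlations between 0.061 and 0.287 over 10 pairs of groups, 9 of them over 0.1 and 1 under it. The correlation was not over 0.1 in every pair and no label says what a number marks, so the libraries were not treated as paired. This does not show that the numbers carry no shared factor. By column name and library number, Ago replicate 1 would go with the second libraries of the other groups. The correlations with Ago knockout and all calls of the replicate block rest on the titles' numbers. The replicate block called 6 members each in Drosha, Dicer and Ago knockout and for the mean of the 4 knockouts, and 1 in Dicer knockout against the label Dgcr8 knockout. Beyond the members called without it these were Lamb1 (adjusted p = 0.014), Lamc1 (0.026) and Sparc (0.021) in Drosha, Lamc1 (0.036) and Nid1 (0.036, higher) in Dicer, Hspg2 (0.049) and Sparc (0.048) in Ago knockout, and Lamc1 (0.0085) and Sparc (0.012) for the mean.

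Signs turned in 7 uncalled values, all on leaving out 1 library: for the label Dgcr8 knockout Lama5 was -0.41 without its replicate 2 and -0.04 without WT replicate 2 (highest 0.47), and Nid2 was 0.048 without WT replicate 1 (lowest -0.24). In Drosha knockout Nid1 was -0.11 without its replicate 1 (highest 1.03) and Hspg2 0.052 without its replicate 2 (lowest -0.30). Nid2 was 0.081 in Dicer knockout without its replicate 2 (lowest -0.51), and Lama5 was -0.40 in Ago knockout without its replicate 1 (highest 0.62). Of 390 member values under other alternatives 371 kept direction and side of the threshold, and of 500 on leaving out a library 438 did.

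All genes called numbered 8 for the label Dgcr8 knockout, 378 in Drosha, 1220 in Dicer and 316 in Ago knockout, and 776 for the mean of the 4 knockouts. In that order DESeq2 called 160, 972, 1874, 932 and 1444, limma-voom 15, then 12 lower and 99 higher, then 1045, 942 and 964, and the replicate block 14, 770, 1877, 738 and 1410. Fits to compared groups alone called 0, 566, 3224 and 536. Leaving out 1 library gave 0 to 107, 1 to 514, 139 to 1503, 3 to 494 and 3 to 1100. Each member had at least 55 counts in every library, so counting error is small beside the spread between libraries.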
